A study of Mus musculus with 6 samples.

Results

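The mitochondrial ribosomal proteins are the building blocks of the ribosome that works inside mitochondria. Their genes were taken as every symbol in the 6 expression tables that starts with Mrpl or Mrps followed by a digit. This gave 78 genes of 15483 listed, 49 named for the large subunit (Mrpl) and 29 named for the small subunit (Mrps). The libraries are messenger RNA sequencing of mouse bone marrow regulatory T cells, sorted as CD3+CD4+NK1.1- and Foxp3+. The control group has 3 libraries, and the irradiated group has 3 libraries from mice taken 3 months after irradiation. Both groups were wild type, and the series title ties the irradiated model to premature aging. The sources used here do not give the radiation dose, the age of the mice or how many animals stand behind a library. P-values therefore reflect only how far these samples spread, and that spread may be technical.

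Mitochondria keep a small genome that encodes a few membrane subunits of the respiratory chain and the ATP synthase, together with ribosomal and transfer RNAs. The ribosome that translates them is built from that RNA and from proteins that are all encoded in the nucleus, made in the cytosol and imported. Some of its proteins have counterparts in bacterial ribosomes, from which it descends, and others exist only in mitochondria. The small subunit reads the messenger RNA, and the large subunit forms the peptide bonds and is tethered to the inner membrane. In T cells, mitochondrial translation feeds oxidative phosphorylation, on which regulatory T cells are known to rely.

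The promoters of 5 genes are shown because the results turn on them: the 2 members that passed the test, the member with the largest fitted increase, and a neighbouring pair with 1 gene for each subunit. Each sequence is the 120 bases before the RefSeq transcription start on build GRCm38.p6, printed 5′ to 3′ on the strand of the gene. Capitals mark matches to 1 of 6 motifs searched on both strands, so a match may be printed as its reverse complement. The motifs were GCGCATGC (NRF1, nuclear respiratory factor 1), CCGGAAG (the ETS family, which includes GABPA), AAGATGGCG (YY1), CACGTG (the E-box), CCAAT (NF-Y) and TATAAA (the TATA box). No motif contains another.
Mrpl33: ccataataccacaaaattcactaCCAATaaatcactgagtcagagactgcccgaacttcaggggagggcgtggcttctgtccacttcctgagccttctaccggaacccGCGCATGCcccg
Mrps30: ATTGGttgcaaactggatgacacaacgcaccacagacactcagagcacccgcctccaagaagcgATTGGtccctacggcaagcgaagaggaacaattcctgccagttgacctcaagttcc
Mrpl53: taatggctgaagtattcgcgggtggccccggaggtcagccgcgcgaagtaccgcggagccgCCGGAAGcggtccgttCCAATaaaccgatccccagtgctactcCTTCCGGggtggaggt
Mrpl46: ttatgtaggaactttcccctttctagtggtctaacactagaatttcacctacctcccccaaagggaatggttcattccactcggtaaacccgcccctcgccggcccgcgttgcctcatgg
Mrps11: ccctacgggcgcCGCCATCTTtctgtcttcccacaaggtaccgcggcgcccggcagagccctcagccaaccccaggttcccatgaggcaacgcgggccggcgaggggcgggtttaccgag

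The stretch of Mrpl33 lies at chr5:31613831-31613950 on the plus strand and holds 1 NF-Y and 1 NRF1 match. That of Mrps30 lies at chr13:118387253-118387372 on the minus strand and holds 2 NF-Y matches. That of Mrpl53 lies at chr6:83108988-83109107 on the plus strand and holds 2 ETS matches and 1 NF-Y match. Mrpl46 (chr7:78783090-78783209, minus strand) and Mrps11 (chr7:78783011-78783130, plus strand) start head to head, so their printed stretches overlap. The stretch of Mrps11 holds a YY1 match, and none of the 6 motifs is found in that of Mrpl46. A match is a string of letters and not a measured binding site.

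Over the whole window of 300 bases (250 before the start and 50 after it), RefSeq gave 75 windows for 69 of the 78 members. The ETS motif was in 34.7% of the member windows, against 18.8% of the windows of all genes tested and 8.86% of all RefSeq windows. The YY1 motif was in 10.7% of member windows, 3.31% of tested windows and 1.40% of all windows. The NRF1 motif was also in 10.7% of member windows, against 5.40% and 2.71%. These 3 factors are known regulators of nuclear genes for mitochondrial proteins, and 36 of the 69 members held at least 1 of their motifs. That share was not counted for the tested genes. Mrpl17, Mrpl22, Mrpl33 and Mrps18b held both the NRF1 and the ETS motif (in Mrpl33 the ETS match lies outside the printed stretch), and Mrps18a and Mrps27 held both ETS and YY1. The NF-Y motif (40.0%, 38.2% and 37.4% in the same order), the E-box (9.33%, 10.2% and 7.15%) and the TATA box (6.67%, 7.01% and 13.6%) were closer to the tested windows. Member windows had a median GC content of 58.7%, tested windows 60.7% and all windows 52.7%. The ETS, YY1 and NRF1 motifs stood in 36.8%, 7.35% and 4.41% of the windows of cytosolic ribosomal protein genes. In those of oxidative phosphorylation subunits they stood in 23.3%, 9.59% and 13.7%. Large subunit windows held them in 31.2%, 8.33% and 14.6%. Small subunit windows held them in 40.7%, 14.8% and 3.7% (1 window of 27 for NRF1).

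The levels below are those of the whole sorted population. Neutrophil markers made up a large share of all FPKM in these libraries (values below), and how much of each level came from regulatory T cells was not tested. All 78 members were above 0 in all 6 libraries, and all passed the filter of a mean of at least 1 FPKM. FPKM are sequenced fragments counted per unit of transcript length and corrected for library size, so levels can be compared between genes per length. Over all libraries, 1 member was above 100 FPKM, 57 lay between 10 and 100, and 20 lay below 10, of which 7 were below 5. The highest level was 67.7 times the lowest. The order of the members was nearly the same in both groups, with a Spearman correlation across the 78 genes of 0.986 between control and irradiated means. These points share libraries, and genes are not independent replicates. Members with a shorter exonic length tended to have the higher levels (Spearman correlation -0.32). That length merges all annotated exons of a gene, so it can exceed the length of the transcript made.

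**Figure D1:**
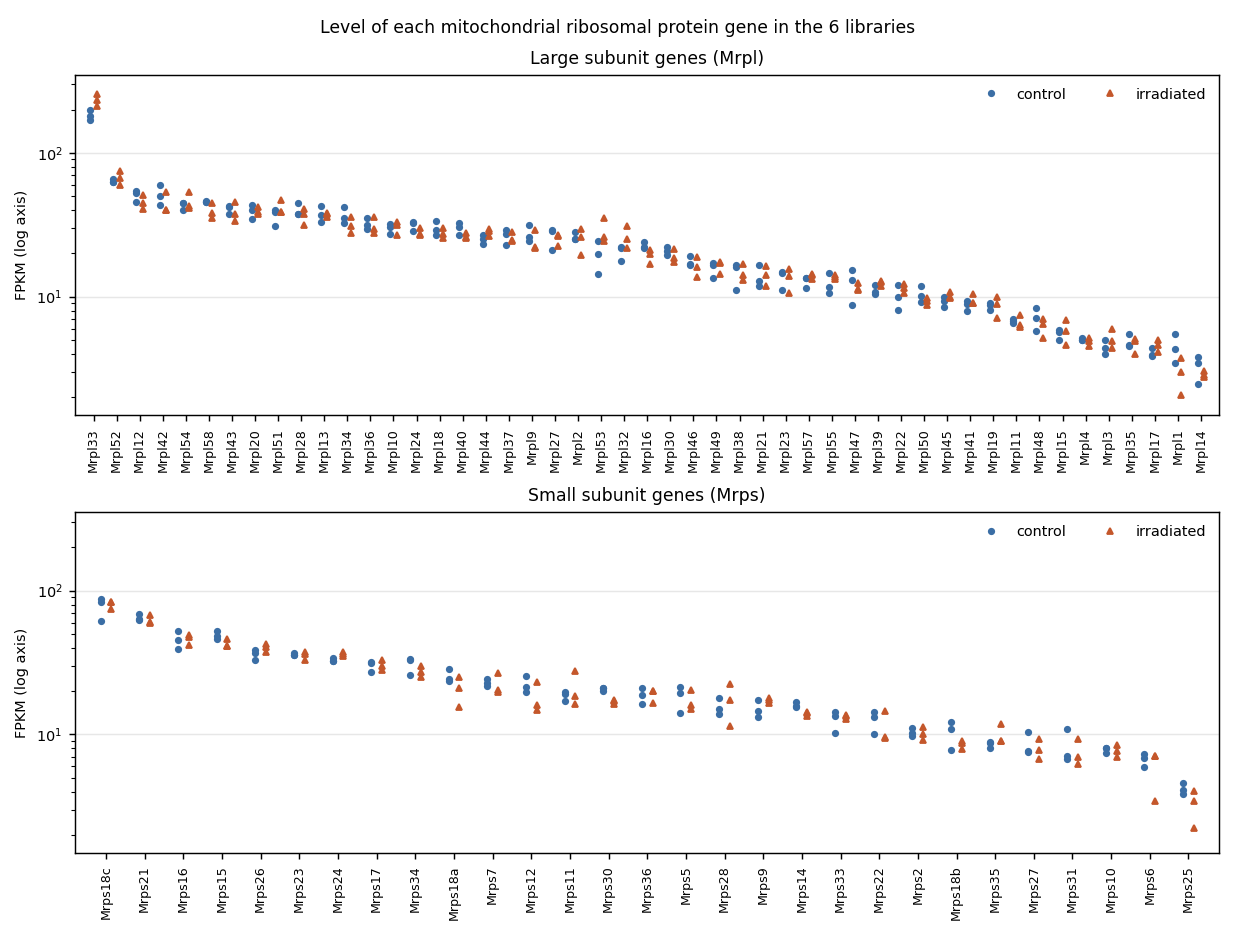
Level of each member in FPKM on a log axis, 1 point per library (circles for control, triangles for irradiated), with the 49 large subunit genes above and the 29 small subunit genes below, in order of mean level. Mrpl33 stands apart at the top with 168 to 257 FPKM, and the points of both groups mix for most genes.

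Mrpl33, the counterpart of bacterial L33, was the most abundant member, with 198, 181 and 168 FPKM in the control libraries and 212, 257 and 232 in the irradiated ones. All 3 irradiated libraries were above all 3 controls. The large subunit gene next in level was Mrpl52, which is specific to mitochondria, with 65.9, 62.6 and 62.4 FPKM in control and 66.4, 59.3 and 74.3 in irradiated libraries. Mrpl12 followed with 54.3, 52.1 and 45.6 FPKM in control and 40.8, 45.0 and 50.8 in irradiated libraries. It encodes a protein of the stalk that recruits translation factors, and it is also known to bind the mitochondrial RNA polymerase. The groups overlapped for Mrpl52, and for Mrpl12 they overlapped in part. Every library had more Mrpl52 than Mrpl12.

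Among the small subunit genes, Mrps18c led with 87.9, 82.8 and 61.1 FPKM in control and 83.6, 75.1 and 83.3 in irradiated libraries. Mrps21 had 62.4, 68.5 and 63.3 in control and 67.2, 59.5 and 60.0 in irradiated libraries. Mrps16 had 52.7, 45.2 and 39.2 in control and 49.3, 42.0 and 47.8 in irradiated libraries. All 3 have bacterial counterparts (S18, S21 and S16), and the groups overlapped for each. The third control library was the lowest control for Mrps18c and Mrps16.

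At the bottom of the large subunit stood Mrpl14, with 3.81, 3.47 and 2.49 FPKM in control and 2.86, 2.78 and 3.03 in irradiated libraries. Mrpl1, whose bacterial counterpart forms the stalk that guides the leaving transfer RNA, had 5.50, 3.43 and 4.32 in control and 3.75, 2.09 and 2.99 in irradiated libraries. Mrpl17 had 3.90, 3.92 and 4.42 in control and 4.97, 4.13 and 4.63 in irradiated libraries. The groups overlapped for all 3 genes. The lowest small subunit genes were Mrps25 (4.58, 3.84 and 4.09 in control, 3.43, 4.07 and 2.22 in irradiated libraries), Mrps6 (5.92, 7.29 and 6.90, then 7.06, 7.11 and 3.45) and Mrps10 (8.04, 7.43 and 8.03, then 6.97, 7.71 and 8.39). The third irradiated library was the lowest of the 6 for Mrps25 and Mrps6.

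The comparison of irradiated with control libraries asked whether these genes differ between the groups 3 months after irradiation. Of the 78 members 1 rose and 1 fell, and these 2 genes are 2.56% of the list. Across the 10666 genes tested, 671 rose (6.29%) and 1100 fell (10.3%), so 1771 (16.6%) passed the threshold. The test was limma on log2(FPKM + 1), with Benjamini-Hochberg adjustment over all genes tested and a threshold of 0.05. An unadjusted p below 0.05 was found for 8 members (10.3%), against 29.6% of all genes tested. The groups did not overlap for 9 members (11.5%), 4 of them higher and 5 lower after irradiation, against 33.6% of all genes tested. Without the second control library the series-wide counts were 414 higher and 709 lower. For the members, leaving out 1 library at a time gave 1 to 3 higher and 0 to 2 lower, and which libraries did so is given below with each gene.

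The median log2 change of the members was -0.03, and that of all genes tested was -0.02. Single members ranged from -0.46 (Mrpl1) to 0.54 (Mrpl53), with 33 above 0 and 45 below. The mean level of 41 members in the irradiated group was within 10% of the control mean, and that of 74 members was within 25%. The median standard error of the log2 change was 0.11 for the members and also 0.11 over all genes tested. The 95% interval of the change lay within 0.5 log2 units of 0 for 67 members (85.9%), compared with 65.8% of all genes tested. For these 67 genes, a change larger than that lay outside the interval. The 11 members with wider or shifted intervals were Mrpl1, Mrpl32, Mrpl33, Mrpl53, Mrps6, Mrps12, Mrps18a, Mrps18b, Mrps22, Mrps25 and Mrps31. Members were mostly of middle level, and among all tested genes of 3 to 210 FPKM the share passing the threshold was again 16.6% and the share with intervals inside that band was 72.1%.

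**Figure D2:**
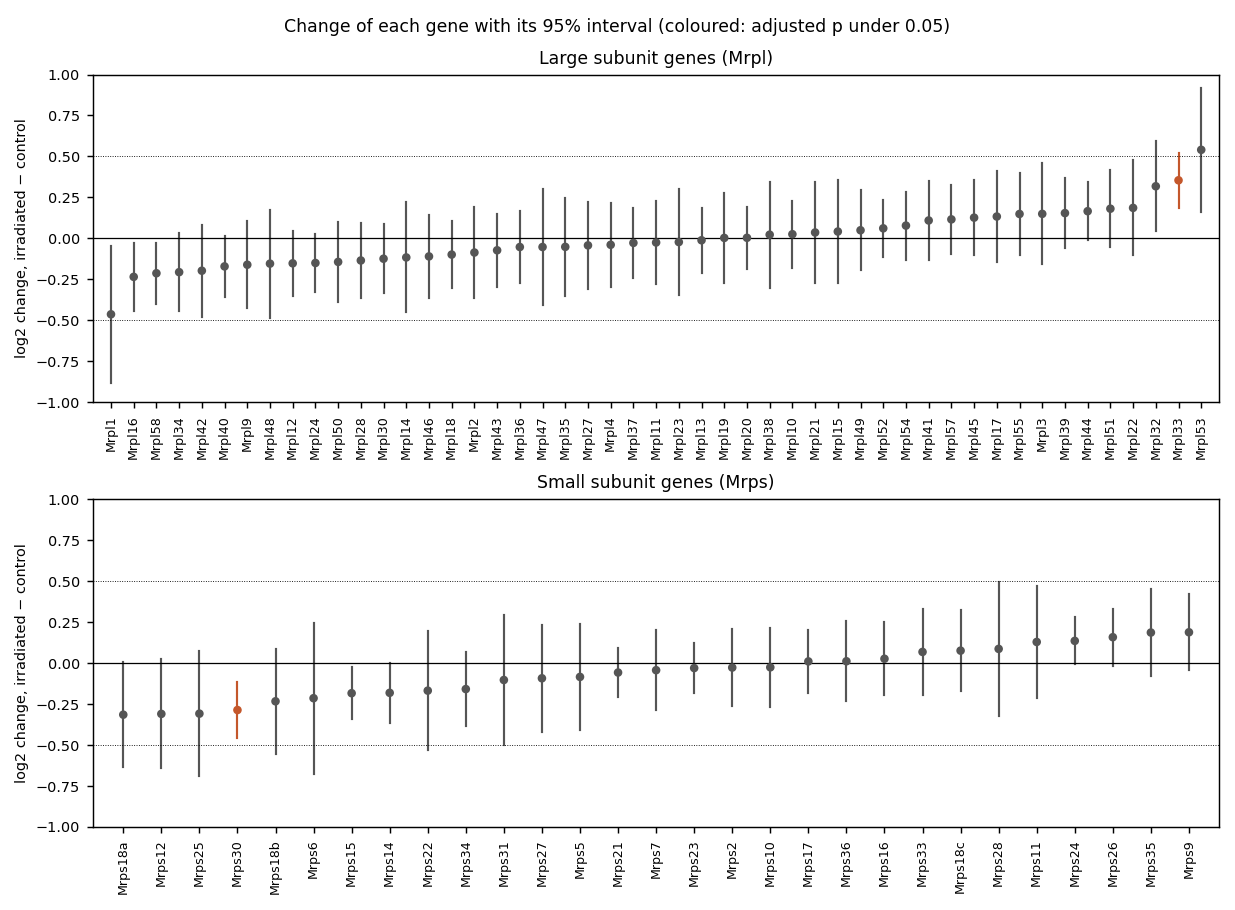
Change in log2(FPKM + 1), irradiated against control libraries, for each of the 49 large subunit genes (upper panel) and 29 small subunit genes (lower panel), ordered by the change, with the 95% interval as a line and dotted lines at 0.5 and -0.5. The 2 coloured genes, Mrpl33 and Mrps30, passed the test, and most other intervals cross 0 and stay inside the dotted lines.

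Mrpl33 rose from 182 ± 14.7 FPKM (SD, n = 3) to 234 ± 22.9 FPKM (SD, n = 3). The log2 change was 0.35 with a standard error of 0.08, a 95% interval of 0.19 to 0.52 and an adjusted p of 0.0084 (limma). Leaving out each library in turn kept it past the threshold, with adjusted p between 0.00447 and 0.0328. Without the mean-variance trend in limma the adjusted p was 0.0644. Mrpl33 spans chr5:31596935-31664384 on the plus strand in GENCODE M21, and the RefSeq start whose promoter is printed above lies inside that span. Rbks, the ribokinase gene, overlaps it on the other strand and had 5.88 ± 1.29 FPKM in the controls and 8.28 ± 1.15 after irradiation (SD, n = 3 each; log2 change 0.44, adjusted p 0.0719 by limma). The library kit keeps the strand, but whether the counting used it is not stated. If it did not, reads from the overlap could count for both genes. Gm43809 overlaps Mrpl33 on the same strand, has no values here, and would not be separated by strand.

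Mrps30 had 20.95, 21.2 and 20.1 FPKM in the control libraries and 16.2, 17.1 and 17.3 in the irradiated ones. All irradiated values were below all control values. Its mean fell from 20.8 ± 0.57 to 16.8 ± 0.576 FPKM (SD, n = 3 each), a log2 change of -0.29 with a standard error of 0.08, a 95% interval of -0.46 to -0.12 and an adjusted p of 0.0276 (limma). The adjusted p was 0.0891 without the first control library, 0.102 without the second, 0.0784 without the first irradiated library and 0.0542 without the second, while the log2 change stayed between -0.31 and -0.26. Mrps30 lies at chr13:118378381-118387252 on the minus strand. It carries a small subunit symbol, but structures of the mammalian ribosome place its protein in the large subunit, and it has no bacterial counterpart.

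Mrpl53, a mitochondria-specific large subunit protein, had the largest fitted increase and is named here after its values were seen. Its levels were 19.7, 14.3 and 24.2 FPKM in control and 24.3, 35.0 and 26.0 FPKM in irradiated libraries. The groups were separated by the narrow step from 24.2 to 24.3. The log2 change was 0.54 with a standard error of 0.17 and a 95% interval of 0.16 to 0.92, and the adjusted p of 0.0552 (limma) missed the threshold. It was 0.0199 without the third control library and 0.0464 without the first irradiated one. Without the second control library the log2 change was 0.35 (adjusted p 0.178), and without the second irradiated library it was 0.39 (0.177). The adjusted p was 0.116 without the first control and 0.0850 without the third irradiated library. With all libraries, Mrpl53 passed with a minimum mean of 5 FPKM (limma adjusted p 0.0422), median-of-ratios scaling (0.0427) and array weights (0.0288). It missed the threshold with quantile normalization (0.054), a pseudocount of 0.1 (0.059), the replicate block (0.0936), no trend (0.136) and no filter (0.178). Mrpl53 lies at chr6:83109040-83109939 in GENCODE M21.

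The other members whose groups did not overlap are also named after their values were seen, and none of them passed the test. Lower in all irradiated libraries were Mrps15 (46.23, 48.3 and 52.1 FPKM in control, 46.19, 41.2 and 41.4 irradiated), Mrps14 (16.7, 15.8 and 15.4, then 14.3, 13.4 and 14.2), Mrpl58 (45.2, 45.2 and 46.0, then 35.1, 37.9 and 44.8) and Mrpl16 (24.1, 22.3 and 21.9, then 19.9, 16.8 and 21.02). Their log2 changes lay between -0.23 and -0.18, with limma adjusted p of 0.112 for Mrps15, 0.177 for Mrps14, 0.115 for Mrpl58 and 0.119 for Mrpl16. The groups of Mrps15 were separated only by the very narrow step from 46.19 to 46.23. Mrpl58 is the peptidyl-tRNA hydrolase that frees stalled ribosomes, and Mrpl16 is the counterpart of a bacterial protein near the site of peptide bond formation. Without the third irradiated library the adjusted p of Mrpl58 was 0.0195, and without the first it was 0.317 (log2 change -0.14). Higher in all irradiated libraries were Mrps24, the counterpart of bacterial S3 (32.3, 32.3 and 34.3, then 35.2, 37.3 and 36.5; log2 change 0.14, adjusted p 0.191 by limma), and Mrps35 (8.08, 8.77 and 8.83, then 9.06, 8.996 and 11.8; 0.19 and 0.335).

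Mrps12, the counterpart of a bacterial protein at the decoding centre, had 21.5, 25.7 and 19.7 FPKM in control and 23.3, 15.9 and 14.9 in irradiated libraries. The first irradiated library lay among the controls and the other 2 below them, and the limma adjusted p was 0.198 with all libraries and 0.0167 without that library. Without the third irradiated library the log2 change of Mrps12 went from -0.31 to -0.19 (adjusted p 0.475), without the second control library to -0.21 (0.492) and without the first irradiated library to -0.50. Vertebrates carry 3 homologues of bacterial S18. Mrps18a, whose protein sits in the large subunit, had 24.2, 28.3 and 23.4 FPKM in control and 25.1, 15.4 and 20.9 in irradiated libraries (adjusted p 0.177; 0.0377 without the first irradiated library, and 0.490 with a log2 change of -0.13 without the second). Mrps18b had 10.95, 12.3 and 7.85 in control and 8.76, 8.99 and 7.89 in irradiated libraries (adjusted p 0.320; 0.0457 with a log2 change of -0.40 without the third control library, and 0.722 with -0.11 without the second). The fitted log2 changes were -0.31 for Mrps18a and -0.23 for Mrps18b, while Mrps18c, the most abundant of the 3, had overlapping groups as given above.

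Mrpl12 had a log2 change of -0.15 (limma adjusted p 0.293). Mrpl1 had the lowest fitted change, -0.46 with a standard error of 0.19 (95% interval -0.88 to -0.05, adjusted p 0.127 by limma). Mrpl32, which the m-AAA protease of the inner membrane matures, had 21.8, 17.8 and 22.1 FPKM in control and 21.8, 25.1 and 31.1 in irradiated libraries, with a log2 change of 0.32 and an adjusted p of 0.113. The adjusted p of Mrpl32 was 0.0398 without the first irradiated library, 0.330 without the third (log2 change 0.19) and 0.336 without the second control library (0.22). Mrps36 carries a ribosomal symbol, but its protein belongs to the 2-oxoglutarate dehydrogenase complex. It had 16.2, 21.1 and 18.8 FPKM in control and 16.5, 19.9 and 20.1 in irradiated libraries, with a log2 change of 0.01 (adjusted p 0.962 by limma).

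The head-to-head pair Mrpl46 and Mrps11, whose promoters are printed above, encodes 1 protein of each subunit. Mrpl46 had 16.8, 19.1 and 16.7 FPKM in control and 16.1, 13.7 and 19.0 in irradiated libraries. Mrps11 had 19.1, 17.02 and 19.6 in control and 18.5, 27.8 and 16.3 in irradiated libraries. In the second irradiated library Mrpl46 was at its lowest and Mrps11 at its highest. The annotated spans of these genes overlap on opposite strands in GENCODE M21. If the counting did not use the strand, reads from that overlap could count for both genes. Neither gene passed the test (log2 changes -0.11 and 0.13, limma adjusted p 0.579 and 0.632).

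By symbol, the large subunit had 1 gene that rose and 0 that fell of 49 (2.04%), and the small subunit had 0 that rose and 1 that fell of 29 (3.45%). Both shares were below that of all genes tested, of which 6.29% rose and 10.3% fell (16.6% in either direction). The median log2 change was -0.03 for the large and -0.04 for the small subunit genes. The mean log2 level of the large subunit genes was 4.30, 4.26 and 4.22 in the control libraries and 4.26, 4.24 and 4.27 in the irradiated ones, so the groups overlapped. The mean log2 level of the small subunit genes was 4.32, 4.32 and 4.27 in control and 4.26, 4.23 and 4.24 in irradiated libraries, with all irradiated libraries lower. The gap is 0.06 log2 units between group means. These means are given as values with no test, because the members are not replicates.

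The difference between subunits (mean log2 level of large minus small) was -0.01, -0.06 and -0.05 in control and 0.00, 0.01 and 0.03 in irradiated libraries. The groups did not overlap, and their means differed by 0.05. The size of that separation changed with how genes were assigned and with the 2 genes that passed the test. Those 2 genes were picked from these same values, so leaving them out narrows the gap by construction. Without Mrpl33 and Mrps30 the difference ran from -0.120 to -0.0762 in control and from -0.0763 to -0.0451 in irradiated libraries. The ranges then met only at their ends, and the group means still differed by 0.04. With Mrps30 and Mrps18a counted in the large subunit, where their proteins sit, and Mrps36 left out, the groups overlapped. The difference then ran from -0.02 to 0.01 in control and from -0.004 to 0.05 in irradiated libraries. Its group means differed by 0.03. In that grouping the large subunit had 51 genes, 1 that rose and 1 that fell (3.92%), and the small subunit had 26 genes, none of which passed the test. Of all genes tested, 16.6% passed. The summed neutrophil markers also separated the groups, at 15.7% to 16.3% of all FPKM in control and 21.4% to 21.8% in irradiated libraries, and their part in the subunit values was not tested.

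**Figure D3:**
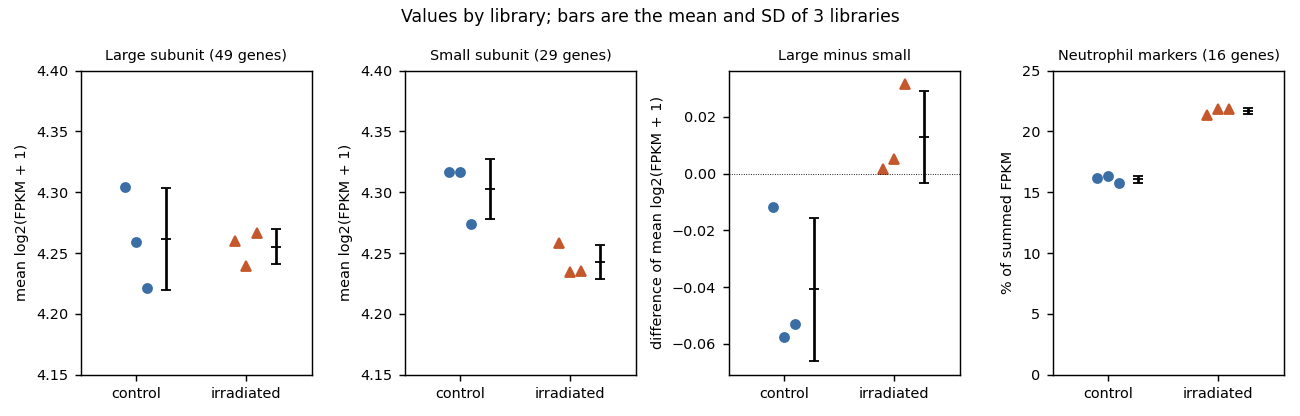
Values per library (circles for control, triangles for irradiated) with the mean and SD of 3 libraries beside them: mean log2(FPKM + 1) of the large and of the small subunit genes on axes that do not start at 0, their difference by symbol, and the share of neutrophil markers in all FPKM. The 3 irradiated libraries lie below the controls for the small subunit, and above them for the difference and for the neutrophil markers.

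Summed over genes, the members made up 1994, 1957 and 1860 FPKM in control and 1919, 1962 and 1983 FPKM in irradiated libraries. As a share of all FPKM of a library this was 0.424%, 0.418% and 0.412% in control and 0.399%, 0.406% and 0.409% in irradiated libraries. The sums overlapped and the shares did not, since the total FPKM of the irradiated libraries was higher (480854 to 485365, against 451444 to 470375). The summed large subunit genes were 1.82 ± 0.033 times the summed small subunit genes in control and 1.92 ± 0.093 times in irradiated libraries (SD, n = 3 each). Without Mrpl33 these ratios were 1.56 ± 0.017 and 1.57 ± 0.055.

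Grouped by ancestry, a split chosen after the values were seen, the 46 members with a bacterial counterpart had a median log2 change of -0.04, with 1 gene (Mrpl33) that rose (2.17%, beside 6.29% of all genes tested). The 31 members counted as mitochondria-specific had a median of -0.03, with 1 gene (Mrps30) that fell (3.23%, beside 10.3% of all genes tested). Mrpl47 was counted with these, an assignment that is doubtful, and Mrps36 was in neither group. The members lie on 17 chromosomes, with 11 genes on chromosome 11 and 8 on chromosome 17. In GENCODE M21, 34 members overlap a gene on the other strand and 7 a gene on the same strand, where shared reads could move a value. Mrpl33, Mrpl53 and Mrps24 each overlap a gene on the same strand (Gm43809, Gm42688 and Urgcp, in that order). Of these genes only Urgcp had values (log2 change -0.35, adjusted p 0.102 by limma). GENCODE also lists 5 processed pseudogenes of Mrpl23, Mrpl48 and Mrps36, which were not analysed here, and the levels of these 3 genes are uncertain to the extent that reads were shared with them.

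Another 5 proteins of the mitochondrial ribosome carry other symbols, and none passed the test. Dap3, the GTP-binding small subunit protein, had 13.5, 12.4 and 15.2 FPKM in control and 13.6, 14.7 and 11.97 in irradiated libraries. The others were Aurkaip1 (log2 change 0.15, limma adjusted p 0.141), Chchd1 (-0.10, 0.499), Gadd45gip1 (-0.18, 0.492) and Ptcd3 (-0.14, 0.473). The median of the 5 was -0.10, and 1 of them (Aurkaip1) had an unadjusted p below 0.05. That is 20.0%, beside 29.6% of all genes tested.

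Of 30 tested genes listed as assembly factors of the mitochondrial ribosome and related enzymes, 2 rose and 0 fell. That is 6.67%, beside 6.29% of all genes tested that rose, and the median log2 change was 0.01. Rbfa, which binds the maturing small subunit, rose from 64.0 ± 2.37 to 75.2 ± 4.55 FPKM (SD, n = 3 each; log2 change 0.23, standard error 0.06, limma adjusted p 0.0289). Trub2, a pseudouridine synthase of mitochondrial RNA granules, rose from 4.62 ± 1.10 to 7.69 ± 1.47 FPKM (0.64, 0.17 and 0.0299). Nsun3, counted here among the related enzymes, had a log2 change of 0.43 and missed the threshold (limma adjusted p 0.0959). Leaving out the first control library gave adjusted p of 0.0865 for Rbfa and 0.109 for Trub2, and leaving out the first irradiated library gave 0.102 and 0.0768. Rbfa also missed the threshold without the second control (0.110) or the third irradiated library (0.0600), and Trub2 without the second irradiated library (0.101). With no filter and with no trend the adjusted p was 0.0511 and 0.110 for Rbfa, and 0.105 and 0.0620 for Trub2. Ybey was below the filter.

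Of 16 translation factors, 1 rose and 2 fell (18.8%, beside 16.6% of all genes tested), with a median log2 change of -0.07. Tufm, the elongation factor that delivers transfer RNA to the ribosome, had 39.4, 37.7 and 35.0 FPKM in control and 27.3, 32.9 and 29.4 in irradiated libraries, with no overlap. It fell by 0.32 on the log2 scale (standard error 0.08, limma adjusted p 0.0242). Oxa1l, the insertase that takes new proteins from the large subunit into the inner membrane, fell from 24.0 ± 2.22 to 19.4 ± 0.933 FPKM (SD, n = 3 each; adjusted p 0.0392). Guf1, a homologue of bacterial EF4, rose from 4.97 ± 0.518 to 6.96 ± 0.735 FPKM (adjusted p 0.0437). Tufm missed the threshold without the first (0.0990) or second control (0.0777) and without the first (0.0787) or the third irradiated library (0.0664). Oxa1l missed it without any 1 library other than the second control (0.0507 to 0.118 for the 5, in the same test), and Guf1 missed it without any 1 of the 6 (0.0619 to 0.157). Oxa1l also missed it with no filter (0.0708), median-of-ratios scaling (0.0529), quantile normalization (0.0601), no trend (0.0767), array weights (0.0509) and the replicate block (0.0668). Tufm missed it with no filter (0.0589) and no trend (0.0712), and Guf1 with no filter (0.0896) and the replicate block (0.0830).

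The 79 cytosolic ribosomal protein genes, which build the ribosome outside mitochondria, had 0 that rose and 10 that fell (12.7%, beside 10.3% of all genes tested that fell), with a median log2 change of -0.11 and 71 of 79 below 0. Their mean log2 level was 9.45, 9.42 and 9.26 in control and 9.27, 9.27 and 9.29 in irradiated libraries. The third control library lay below all irradiated libraries, so the groups overlapped and the lower mean after irradiation rests on the other 2 controls. Rpl13a (log2 change -0.22, limma adjusted p 0.0194) and Fau (-0.21, 0.0236) were among those that fell. An unadjusted limma p below 0.05 was found for 33 of the 79 genes (41.8%, beside 29.6% of all genes tested). The median standard error of the list was 0.06, at far higher levels than those of the mitochondrial ribosome. Rpl13a and Fau missed the threshold under median-of-ratios scaling (0.0714 and 0.0778), with no filter (0.0875 and 0.0919), with no trend (0.135 and 0.150), and without the first (0.0769 and 0.0851) or the second control library (0.0850 and 0.0595). They also missed it without the first (0.0557 and 0.0937) or the third irradiated library (0.0775 and 0.0877), and Rpl13a without the second (0.0529).

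Of 82 tested subunits of oxidative phosphorylation, the complexes that hold the products of mitochondrial translation, 10 rose and 1 fell (13.4%). Across all genes tested, 6.29% rose and 10.3% fell (16.6% in either direction). The median log2 change of the list was 0.01. Atp5l and Atp5md, small subunits of the ATP synthase, rose by 0.27 and 0.36 on the log2 scale (limma adjusted p 0.0071 and 0.011). With no trend the adjusted p was 0.0602 for Atp5l and 0.0680 for Atp5md, and with no filter it was 0.0565 for Atp5md. Ndufv3, of complex I, rose by 0.29 (adjusted p 0.012, and 0.0556 without the second control library). The gene that fell was Cox6a2 (log2 change -1.62), which is also on the list of plasmacytoid dendritic cell markers. The differences between these lists and the members were not tested.

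**Figure D4:**
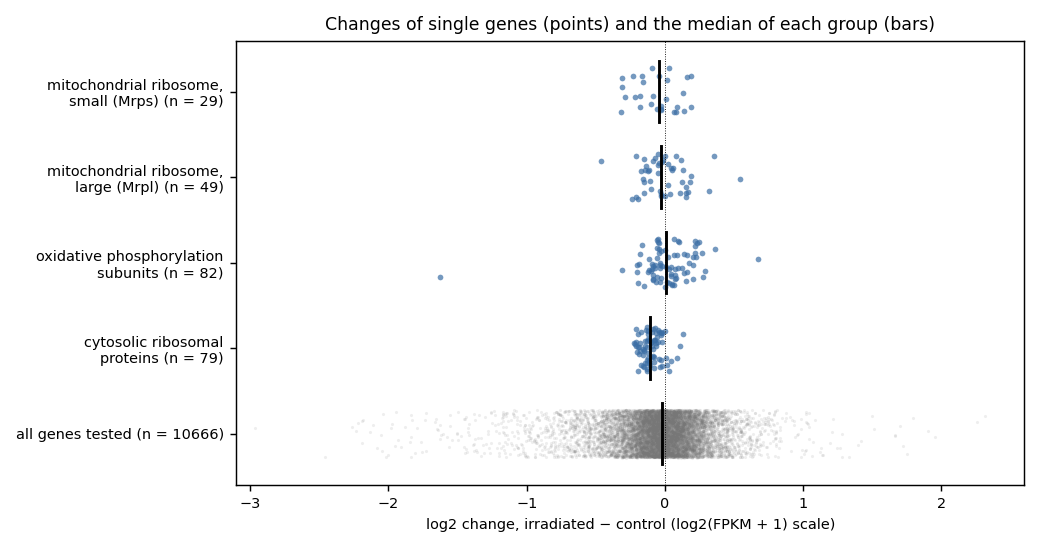
Log2 change between irradiated and control libraries on the horizontal axis for all 10666 genes tested, 79 cytosolic ribosomal protein genes, 82 oxidative phosphorylation subunits and the large (49) and small (29) subunit genes of the mitochondrial ribosome, 1 point per gene, with the median of each group as a bar. The members lie between -0.46 and 0.54, while single genes of the whole set reach -2.97 and 2.32.

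The labelled cell type was checked against marker lists. Of all genes tested, 6.29% rose and 10.3% fell, and these are the shares to set beside the marker counts below. Foxp3, Cd4 and Cd3e were present at means of 17.6, 30.1 and 32.2 FPKM over the 6 libraries. The summed level of 12 T cell markers was 466 to 483 FPKM in control and 278 to 291 in irradiated libraries, with 11 of 12 that fell. For 8 regulatory T cell markers it was 189 to 193 and 111 to 121, with 7 that fell. The summed level of 16 neutrophil markers was 71036 to 76329 FPKM in control and 102780 to 105844 in irradiated libraries, with 11 that rose. The shares of all FPKM that they made up are given with the subunits above. Lower in irradiated libraries were the sums of 10 macrophage markers (810 to 843, then 303 to 322, 10 that fell), 10 erythroid markers (1117 to 1364, then 758 to 790, 7 that fell) and 7 natural killer cell markers (78.2 to 79.8, then 35.5 to 43.1, 5 that fell). The sum of 10 B cell markers was 116 to 122 and then 38.5 to 46.3, and all 9 that were tested fell. Of 6 plasmacytoid dendritic cell markers and of 6 eosinophil markers, 4 each fell. Apart from 1 B cell marker at 0 in each of the first and second irradiated libraries, no marker was at 0. In these bulk libraries, fewer cells of a type and less RNA per cell cannot be told apart. The part of these shifts in the values of the mitochondrial ribosomal protein genes, Mrpl33 and Mrps30 included, was not tested.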

How the data were processed

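The values deposited for each gene were read as FPKM because the sum of value times exonic length was nearly constant (1465015 to 1476166 kilobase units) while plain totals differed; the file headers do not name the unit. RNA came from sorted cells and a stranded messenger RNA kit was used, per the labels' protocols. The tools fastp, HISAT2 and StringTie and the builds GRCm38 and mm10 are named per the submitters' processing notes, while versions, settings and strand handling are not stated there. FPKM carry no read counts, so the depth is unknown.

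Values were transformed as log2(FPKM + 1). The 10666 genes whose mean reached 1 FPKM entered a two-sided limma test (version 3.58.1, R 4.3.3, moderated with a mean-variance trend), adjusted by Benjamini and Hochberg over all of them, with a threshold of 0.05. Changes are irradiated minus control in that unit, so the change of low genes is understated. The procedure was tested on simulated data. Members, lists, motifs and markers were chosen with earlier results of these data known, and lists are described by counts and medians without a test of their own. Named were the members past the threshold, the 3 highest and 3 lowest of each subunit by level, Mrpl12, Mrps12, Mrps18a, Mrps18b, Mrps18c, Mrps30 and Mrps36, and the 3 genes with the lowest p of each other list; other names were chosen after their values were seen. One gene that the rule names is not reported here. Assignment of proteins to a subunit by place, and their ancestry, are background knowledge and not from the files. Coordinates are from GENCODE M21 on GRCm38 and promoters from RefSeq GRCm38.p6, with genes matched by symbol. Replicate numbers served only as names. Tables and plots were made in Python 3.11.15 (pandas 2.3.3; numpy 2.4.6; matplotlib 3.10.9).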

Additional observations from a re-analysis of the deposited data

How the results depend on the processing

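Fits were repeated with other settings: no trend, array weights, the replicate block, no filter or 5 FPKM as the least mean, a pseudocount of 0.1, median-of-ratios or quantile scaling, and each library left out. Of 1085 values of single members under these 14 fits, 1056 kept their call and direction, 6 lost a call, 10 gained one (6 members) and 13 turned direction. A change of sign within 1 standard error and without a call was not counted as a turn (73 values, other named genes included). All turns came from leaving out 1 library. The log2 changes then ran from -0.10 to 0.086 for Mrpl13, -0.21 to 0.077 for Mrpl2, -0.15 to 0.13 for Mrpl23, -0.15 to 0.12 for Mrpl38, -0.019 to 0.14 for Mrpl52, -0.033 to 0.15 for Mrpl54, -0.085 to 0.28 for Mrps11, -0.077 to 0.13 for Mrps16, -0.082 to 0.18 for Mrps18c, -0.12 to 0.33 for Mrps28, -0.25 to 0.093 for Mrps31, -0.065 to 0.16 for Mrps33, -0.36 to 0.074 for Mrps6 and -0.33 to 0.020 for Gadd45gip1. Members called higher, all of the large subunit, were 2 with a minimum mean of 5 FPKM, with median-of-ratios scaling and with array weights, 0 with no trend, and 1 to 3 when a library was left out. Members called lower were 0 with the replicate block and 0 to 2 when a library was left out; for the small subunit these were 0 and 0 to 2, and for the large subunit 0 to 1 when a library was left out. By place of the protein, 1 large and 0 small subunit genes were called lower. The median log2 change of the large subunit was 0.014 with quantile normalization. That of the small subunit was -0.014 with median-of-ratios scaling, -0.020 with quantile normalization and between -0.065 and 0.0061 when a library was left out, and the difference of medians (large minus small) then ran from -0.041 to 0.053. Over all genes, leaving out a library gave 414 to 684 higher and 709 to 968 lower; the cause of these shifts was not tested. The 2 scalings moved the median of all genes to 0.00 and 0.02. Same-numbered libraries did not deviate together (correlations of 0.011, -0.042 and -0.023), so the replicate block rests on a shared number only; among the members it changed the call of Mrps30 (adjusted p 0.0546 by limma) and of no other. With 3 libraries a group and no read counts, the precision of each member is given only by its interval.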

Other observations

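The lists for charging of mitochondrial transfer RNAs, for transcription of mitochondrial DNA and for regulators of mitochondrial genes held 0 genes past the limma threshold. Across all genes tested, 16.6% passed it. Of 20 tested aminoacyl-tRNA synthetases and related enzymes, which load amino acids onto mitochondrial transfer RNAs, 2 had an unadjusted p below 0.05, and the median log2 change was 0.07. The lowest p were those of Hars2 (13.0 ± 0.937 FPKM in control and 10.4 ± 1.81 in irradiated libraries, SD, n = 3 each, adjusted p 0.131), Pars2 (log2 change -0.42, adjusted p 0.145) and Sars2 (0.24, 0.194). Ears2 and Nars2 were below the filter.

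Of 14 tested genes that copy, transcribe or process mitochondrial DNA and its RNA, 2 had an unadjusted p below 0.05. That is 14.3%, beside 29.6% of all genes tested, and the median log2 change was 0.01. Tfam, which packages mitochondrial DNA and starts its transcription, had 9.31, 9.90 and 9.04 FPKM in control and 7.63, 8.26 and 7.02 in irradiated libraries, with no overlap (log2 change -0.27, limma adjusted p 0.108). Pnpt1, an RNA exonuclease, had a log2 change of -0.30 (adjusted p 0.105), and Polg, the mitochondrial DNA polymerase, 0.23 (adjusted p 0.197). Mterf2 was below the filter. Of 8 tested regulators 1 (12.5%, beside 29.6% of all genes tested) had an unadjusted p below 0.05. This was Nfe2l2, the transcription factor of the oxidative stress response, with 51.5 ± 0.393 FPKM in control and 45.4 ± 1.11 in irradiated libraries (SD, n = 3 each, limma adjusted p 0.0571, 0.0398 to 0.156 over the alternatives). Yy1 had a log2 change of -0.16 (adjusted p 0.203) and Gabpa 0.16 (adjusted p 0.305), and Ppargc1a and Ppargc1b were below the filter.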
